A study of Homo sapiens with 6 samples.

Results

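The genes described here encode components of the canonical WNT pathway: the receptors *FZD1*, *FZD8*, *LRP5* and *LRP6*, the GSK3-binding proteins *FRAT1* and *FRAT2*, the scaffolds *AXIN1* and *AXIN2*, and the nuclear effectors *CTNNB1* (beta-catenin) and *TCF7L2*. They were chosen by name, and all 10 were found among the 29744 genes of the deposited table. All 10 also passed the filter on low values, which kept 13373 genes. The data are RNA-seq of LNCaP, a human prostate cancer cell line. Cells received CDKI-73 at 250 nM for 4 h, or DMSO as vehicle, with 3 biological replicates in each group. CDKI-73 inhibits CDK9, a kinase that lets paused RNA polymerase II proceed into productive elongation. The study states that it also inhibits CDK7 and, in biochemical assays, CDK1 and CDK2. The part of each kinase in the changes below was not tested. Cells of both groups were grown in RPMI-1640 with FBS, and libraries of PolyA+ RNA, stranded, were read from a single end. The comparison asks how acute treatment with this inhibitor alters the transcriptome, in a single cell line.

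In the absence of a WNT ligand, beta-catenin is bound by a destruction complex, in which AXIN is the scaffold, GSK3 and casein kinase 1 phosphorylate beta-catenin, and the protein is then ubiquitinated and degraded. When a ligand engages a Frizzled receptor together with LRP5 or LRP6, AXIN is drawn to the membrane, beta-catenin accumulates, enters the nucleus and activates target genes with TCF/LEF factors. FRAT proteins bind GSK3 and, when overexpressed, keep it from phosphorylating beta-catenin. *AXIN2* is itself a target of beta-catenin and TCF, and acts as negative feedback.

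Values are CPM, a gene's share of the counted reads of a sample. The totals, inferred from the step between the rounded values, were 46.1 to 52.0 M counted reads in CDKI-73 samples and 52.9 to 60.9 M in DMSO samples, so that 1 read was worth 0.0164 to 0.0217 CPM. Of the markers of luminal prostate cells, *KLK3* lay between 2865 and 3336 CPM in CDKI-73 samples and between 2480 and 2787 CPM in DMSO samples. Of 10 markers of other cell types, 6 lay at or below 0.04 CPM in all 6 samples, namely *KRT5* and *TP63* (basal epithelium), *COL1A2* and *DCN* (stroma), *PTPRC* (immune cells) and *PECAM1* (endothelium). The other 4 were detected. *COL1A1* (stroma) averaged 13.7 ± 1.09 CPM in CDKI-73 samples and 9.86 ± 0.40 CPM in DMSO samples, and *CD68* (immune cells) 6.66 ± 0.50 CPM and 5.10 ± 0.42 CPM (SD, n = 3 each), both higher (0.47 and 0.38, limma adjusted p = 7.3e-04 and 0.0067). *VWF* (endothelium), at 11.03 ± 0.96 CPM in CDKI-73 samples and 10.1 ± 0.04 CPM in DMSO samples, and *KRT14* (basal epithelium), at 1.2 ± 0.12 CPM and 0.86 ± 0.31 CPM, did not pass. Their part in the results was not tested. Differences were tested by limma in a fit over all 13373 genes, using log2(CPM + 0.1), with Benjamini-Hochberg adjustment over all of them. Below, "lower" or "higher" means that the limma adjusted p did not exceed 0.05, and "called" means in addition a change of at least 2-fold. A log2 fold change is CDKI-73 over DMSO, and understates the change of genes with few reads because of the added 0.1. Over all tested genes the median was −0.18, and it moved by 0.17 when samples were scaled to the median of gene ratios, by 0.19 with a trimmed mean of M-values, by 0.49 with the upper quartile and by −0.40 with the reference genes *GAPDH*, *HPRT1* and *ACTB*. Because CPM are shares of a sample's reads, the values do not tell a smaller amount of RNA per cell from a smaller number of cells, and a loss of RNA common to all genes leaves no trace in them.

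After CDKI-73, 8 of the 10 genes fell by at least 2-fold, *LRP5* rose slightly and *CTNNB1* did not pass the test. With 0.1 CPM added, the largest falls were those of *FRAT1*, *FZD8*, *FRAT2* and *FZD1*, followed by *AXIN2* and *AXIN1*, and then by *LRP6* and *TCF7L2*. *FRAT1* and *FZD8* passed the filter, a mean of at least 0.5 CPM over the 6 samples, only through their DMSO samples. Their means were 0.15 and 0.063 CPM with CDKI-73, against 7.43 and 2.22 CPM with DMSO. Among all tested genes 22.3% were called lower, 48.2% were lower, 24.2% were higher and 72.4% passed either way by limma. With upper quartile scaling 3931 genes were lower and 7346 higher, and with reference gene scaling 9919 were lower and 387 higher, against 6441 and 3242 as deposited. The CDKI-73 samples all lay below the DMSO samples for 8 of the 10 genes and for 50.0% of all tested genes, and all above them for 1 of the 10 genes and for 25.9% of all tested genes. The 10 genes were taken up with earlier results of these data known, so their count is a description. Their median log2 fold change was −2.29. Whichever of the 6 samples was left out, 8 were again called lower, and with upper quartile scaling 6 were, *LRP6* (−0.88) and *TCF7L2* (−0.73) then being lower by less than 2-fold.

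**Figure D1:**
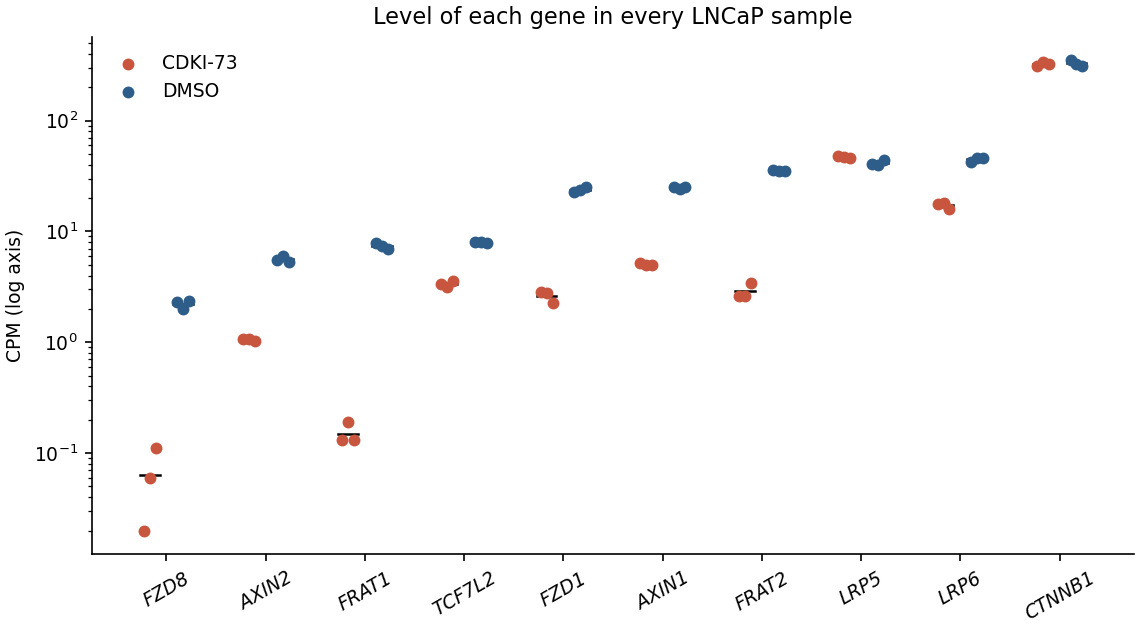
Level of each of the 10 genes in every sample, in CPM on a log axis. Points are samples (CDKI-73 in red, left, and DMSO in blue, right), short black lines are means of 3 samples, and genes are ordered by their DMSO mean. The groups overlap only for *CTNNB1*, at 309 to 350 CPM.

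*FZD1* and *FZD8* encode seven-pass transmembrane receptors that bind WNT proteins through an extracellular cysteine-rich domain. *FZD1* lies on chromosome 7 of hg38 (91264433 to 91271326, plus strand) as 1 exon of 6894 bases. It had 2.83, 2.79 and 2.26 CPM in the CDKI-73 samples, against 22.73, 23.71 and 25.15 CPM in the DMSO samples. The groups were far apart, and the fall, a log2 fold change of −3.14 (SE 0.10, limma adjusted p = 6.5e-08), was many times the spread within either of them. *FZD8*, on chromosome 10 (35638247 to 35642296, minus strand), is also a 1-exon gene, of 4050 bases. Its levels were 0.02, 0.06 and 0.11 CPM with CDKI-73, against 2.30, 2.0 and 2.36 CPM with DMSO. These correspond to about 1, 3 and 5 reads per CDKI-73 sample and 109 to 140 reads per DMSO sample. The log2 fold change was −3.86 (SE 0.22, limma adjusted p = 1.1e-06), and its size depended on the pseudocount, at −5.14 with 0.01 CPM and −1.60 with 1 CPM. Summed over the samples of a group, its share of the counted reads was 37.0-fold lower with CDKI-73, with a 95% interval of 19.3 to 81.6 (exact Clopper-Pearson, counting error only). *FZD8* shares 318 exonic bases with a long non-coding RNA gene on the opposite strand, and whether reads were counted by strand is not given in the sources used here. Within a sample, the ratio of *FZD8* to *FZD1* was 0.00707, 0.0215 and 0.0487 in CDKI-73 samples, against 0.101, 0.0844 and 0.0938 in DMSO samples. These groups did not overlap, yet the CDKI-73 ratios rest on 9 reads of *FZD8* in all. The log2 ratio, CDKI-73 minus DMSO, was −0.72 with 0.1 CPM added (exact permutation p = 0.2), −2.25 with none and 1.18 with 1 CPM, so that its size and direction depended on that choice.

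LRP5 and LRP6 are single-pass co-receptors that recruit AXIN once phosphorylated, and they act alongside Frizzled. *LRP6* (chromosome 12, 12116025 to 12267044, 23 exons) was at 17.68, 18.12 and 15.99 CPM in CDKI-73 samples, against 42.59, 46.25 and 45.67 CPM in DMSO samples. It fell, with a log2 fold change of −1.37 (SE 0.066, limma adjusted p = 3.9e-07). *LRP5* (chromosome 11, 68312591 to 68449275, 23 exons) went the other way, at 47.43, 46.73 and 45.61 CPM with CDKI-73, against 40.85, 39.68 and 44.16 CPM with DMSO. Its groups did not overlap, but the distance between the lowest CDKI-73 and the highest DMSO sample was small, and its log2 fold change was 0.17 (SE 0.055, limma adjusted p = 0.025). This call was not stable. Without CDKI-73 replicate 1 or 2 or without DMSO replicate 1 or 2, the log2 fold change was 0.15, 0.16, 0.15 and 0.13, with adjusted p = 0.081, 0.060, 0.073 and 0.107 from limma, and after scaling to the reference genes it was −0.24 (limma adjusted p = 0.013). With the median of gene ratios, the trimmed mean of M-values and the upper quartile it was instead larger, at 0.34, 0.36 and 0.66 (limma adjusted p = 4.1e-04, 3.0e-04 and 6.0e-06).

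Within each sample, the ratio of *LRP6* to *LRP5*, which does not depend on the scaling between samples, was 0.373, 0.388 and 0.351 with CDKI-73, against 1.04, 1.17 and 1.03 with DMSO. The co-receptor genes were therefore read at near equal CPM in DMSO samples and at unequal CPM in CDKI-73 samples. The difference of the log2 ratio, CDKI-73 minus DMSO, was −1.54 and the exact two-sided permutation test gave p = 0.1, the smallest that 3 samples against 3 allow (0.2 adjusted over the 4 pairs of related genes compared).

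FRAT1 and FRAT2 are closely related proteins encoded by neighboring 1-exon genes that point towards each other on chromosome 10, with 10.6 kb between them. *FRAT1* (97319271 to 97321915, plus strand) had 0.13, 0.19 and 0.13 CPM in CDKI-73 samples, against 7.94, 7.42 and 6.94 CPM in DMSO samples. Its log2 fold change was −4.92 (SE 0.14, limma adjusted p = 4.6e-08), with −5.56 when 0.01 CPM was added and −2.87 when 1 CPM was added. About 7, 10 and 6 reads remained in the CDKI-73 samples, against 367 to 484 in the DMSO samples, and the summed share of counted reads was 48.6-fold lower with CDKI-73 (95% interval 32.3 to 77.0, exact Clopper-Pearson, counting error only). *FRAT2* (97332497 to 97334729, minus strand) was the more abundant of the pair, with 2.64, 2.62 and 3.45 CPM in CDKI-73 samples, against 36.05, 35.30 and 35.03 CPM in DMSO samples. The DMSO values were close to each other, and CDKI-73 replicate 3 was the highest of its group. The log2 fold change of *FRAT2* was −3.58 (SE 0.11, limma adjusted p = 5.6e-08), with −3.62 and −3.23 under the same changes, so that *FRAT2* had the larger value of the pair with 1 CPM.

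The *FRAT1* to *FRAT2* ratio of CPM was 0.0492, 0.0725 and 0.0377 in CDKI-73 samples, against 0.220, 0.210 and 0.198 in DMSO samples. Thus *FRAT1* kept a smaller share of its DMSO level than *FRAT2* in every sample. Without a pseudocount, a setting chosen after seeing the data, the log2 ratio differed by −2.03 between CDKI-73 and DMSO samples (exact permutation p = 0.1), and with 0.1 CPM added by −1.34 (exact permutation p = 0.1). With 1 CPM added it differed by 0.36, as that amount exceeds every *FRAT1* value of the CDKI-73 samples. No stretch of 75 bases, the read length, was common to the *FRAT1* transcript and the transcript of any other GENCODE v44 gene, and the same held for *FRAT2*, so reads of the pair could be told apart. *FRAT2* shares 166 exonic bases with a long non-coding RNA gene on the opposite strand.

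The start sites of the FRAT genes lie in related sequence. The 100 bases upstream of each start site (RefSeq, GRCh38.p14) are shown because both genes fell steeply, with capitals marking the upstream part of the longest run of identical bases in the pair of promoter windows. The windows are chr10:97319171-97319270 on the plus strand for *FRAT1* and chr10:97334730-97334829 on the minus strand for *FRAT2*.
FRAT1: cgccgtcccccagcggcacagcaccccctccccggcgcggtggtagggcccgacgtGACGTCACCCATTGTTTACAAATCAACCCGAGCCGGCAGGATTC
FRAT2: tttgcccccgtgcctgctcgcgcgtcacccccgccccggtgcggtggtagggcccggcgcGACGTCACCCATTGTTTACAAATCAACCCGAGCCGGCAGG
The run is 51 bases long in all, of which 44 lie upstream of the *FRAT1* start and 40 upstream of the *FRAT2* start. Aligned on it, 83 of the 100 upstream *FRAT1* bases were identical in *FRAT2*. The run begins with GACGTCA, the core of the cAMP response element, which was found on either strand in 3.43% of 34796 RefSeq promoter windows (250 bases before to 50 after a start) and in 5.01% of the 13347 windows of tested protein-coding genes. The full palindrome TGACGTCA, which overlaps this core, was present in the window of *FRAT1* alone among the members with an entry, in 1.84% of all windows and in 2.85% of those of tested genes. Both windows also hold TGTTTAC, a forkhead motif found on either strand in 3.42% of all windows and 2.54% of those of tested genes. Entries were found for 8 of the 10 genes, without *AXIN2* and *LRP6*. No window of these 8 held the TCF/LEF motifs CTTTGAT or CTTTGAA on either strand (6.86% of all windows, 4.10% of those of tested genes). Such matches describe the letters of the window and not a bound factor.

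The *FZD8* window is given for comparison, since this gene also has 1 exon and fell to a similar extent, with the TATA box motif TATAAA (either strand in 11.6% of all windows and 6.07% of those of tested genes) in capitals. It covers chr10:35642297-35642396 on the minus strand.
FZD8: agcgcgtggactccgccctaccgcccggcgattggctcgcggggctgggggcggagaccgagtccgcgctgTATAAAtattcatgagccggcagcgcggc
*FZD8* was the sole member with this motif among the 8 with an entry.

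AXIN1 and AXIN2 are interchangeable scaffolds of the destruction complex in mouse. *AXIN1*, expressed in most tissues, lies on chromosome 16 (287440 to 352723, minus strand, 11 exons). It had 5.16, 5.01 and 4.99 CPM in the CDKI-73 samples, against 25.29, 24.04 and 25.34 CPM in the DMSO samples, and fell with a log2 fold change of −2.28 (SE 0.062, limma adjusted p = 4.1e-08). *AXIN2* (chromosome 17, 65528563 to 65561648, minus strand, 11 exons) had 1.06, 1.08 and 1.02 CPM with CDKI-73, against 5.50, 6.0 and 5.33 CPM with DMSO. Its log2 fold change was −2.31 (SE 0.098, limma adjusted p = 2.0e-07). Replicates of *AXIN1* and *AXIN2* were close in both groups, and neither gene had overlapping groups. Of the 75-base stretches of the *AXIN2* transcript, 29.7% also occur in an overlapping protein-coding gene model on the same strand, and whether the authors' annotation held that model is not given in the sources used here.

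Taken within each sample, *AXIN2* over *AXIN1* was 0.205, 0.216 and 0.204 in CDKI-73 samples, against 0.217, 0.250 and 0.210 in DMSO samples. The groups overlapped, and the mean log2 ratio differed by −0.03 (exact permutation p = 0.8), less than its SD of 0.039 among CDKI-73 samples and 0.129 among DMSO samples. Without DMSO replicate 2 the difference was 0.04. With no pseudocount it was −0.11 (exact permutation p = 0.2), with 0.01 CPM −0.10 and with 1 CPM 0.41. A difference between the fall of the feedback gene and that of its relative was thus not detectable here.

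Among the windows of the members, that of *AXIN1* held the most GC boxes (GGGCGG on either strand, present in 44.9% of all windows and 66.1% of those of tested genes). Its 250 upstream bases, chr16:352724-352973 on the minus strand, hold 8 of them, shown in capitals, and *CTNNB1*, which did not pass the test, has 3 in its 150 upstream bases, chr3:41199355-41199504 on the plus strand. The RefSeq start used for *CTNNB1* lies inside the GENCODE v44 gene, downstream of the start of that model.
AXIN1: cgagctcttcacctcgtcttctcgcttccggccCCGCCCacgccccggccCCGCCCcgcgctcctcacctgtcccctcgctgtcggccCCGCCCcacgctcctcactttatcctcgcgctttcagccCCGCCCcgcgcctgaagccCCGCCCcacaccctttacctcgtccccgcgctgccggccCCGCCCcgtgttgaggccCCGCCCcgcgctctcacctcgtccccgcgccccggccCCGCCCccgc
CTNNB1: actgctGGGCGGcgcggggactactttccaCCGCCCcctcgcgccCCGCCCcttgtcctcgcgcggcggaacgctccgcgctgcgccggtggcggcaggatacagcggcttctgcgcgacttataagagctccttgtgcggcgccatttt
No relation between this motif and the change after CDKI-73 was tested.

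*CTNNB1* encodes beta-catenin, which serves in cell adhesion as well as in WNT signaling. Located on chromosome 3 (41194741 to 41260096, plus strand, 15 exons), it was at 310.62, 335.74 and 321.98 CPM in CDKI-73 samples, against 350.29, 323.38 and 309.06 CPM in DMSO samples. The groups overlapped, and the log2 fold change was −0.02 with a 95% interval of −0.15 to 0.11 (adjusted p = 0.76 from limma). This value followed the scaling between samples, with 0.16 by the median of gene ratios (adjusted p = 0.034), 0.18 by a trimmed mean of M-values (adjusted p = 0.023), 0.48 by the upper quartile (adjusted p = 7.6e-05) and −0.43 by the reference genes (adjusted p = 3.9e-04), all from limma. *TCF7L2* encodes a DNA-binding partner of beta-catenin and lies on chromosome 10 (112950247 to 113167678, plus strand, 15 exons), the longest of the 10 genes at 217 kb. It shares 300 exonic bases with a long non-coding RNA gene on the opposite strand. Its levels were 3.35, 3.16 and 3.56 CPM with CDKI-73, against 7.98, 8.09 and 7.79 CPM with DMSO, without overlap. It fell with a log2 fold change of −1.22 (SE 0.081, limma adjusted p = 2.5e-06).

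**Figure D2:**
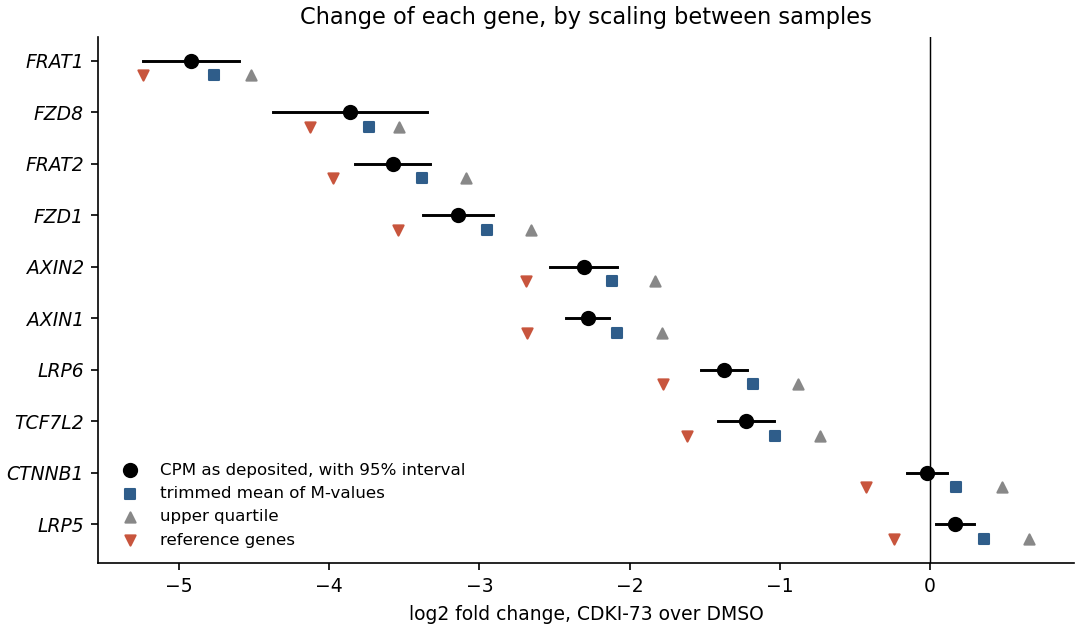
Log2 fold change of each gene, CDKI-73 over DMSO. Black points with bars are limma estimates from the deposited CPM with 95% intervals, and colored symbols are the estimates after 3 other scalings between samples. From the deposited CPM the values run from −4.92 for *FRAT1* to 0.17 for *LRP5*, and only *CTNNB1* and *LRP5* had estimates on both sides of 0.

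Per kilobase of the exons of the canonical GENCODE v44 transcript, the levels of the members spanned a wide range. In CDKI-73 samples *CTNNB1* stood at 88.2 ± 3.4 CPM per kb, followed by *LRP5* at 9.0 ± 0.18, *LRP6* at 1.68 ± 0.11, *AXIN1* at 1.36 ± 0.025, *FRAT2* at 1.30 ± 0.21, *TCF7L2* at 0.824 ± 0.049, *FZD1* at 0.381 ± 0.046, *AXIN2* at 0.247 ± 0.0072, *FRAT1* at 0.0567 ± 0.013 and *FZD8* at 0.0156 ± 0.011 (SD, n = 3). In DMSO samples the order of CPM per kb was *CTNNB1* at 89.5 ± 5.7, *FRAT2* at 15.9 ± 0.24, *LRP5* at 8.03 ± 0.45, *AXIN1* at 6.71 ± 0.20, *LRP6* at 4.37 ± 0.19, *FZD1* at 3.46 ± 0.18, *FRAT1* at 2.81 ± 0.19, *TCF7L2* at 1.95 ± 0.037, *AXIN2* at 1.32 ± 0.082 and *FZD8* at 0.548 ± 0.048 (SD, n = 3). *FRAT2* was thus second to *CTNNB1* with DMSO and below *LRP5* and *LRP6* with CDKI-73. Neighbors in these orders were separate in every sample, except *AXIN1* and *FRAT2* in CDKI-73 samples, whose values overlapped. These levels assume that the canonical transcript is the one expressed.

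The members with the steepest falls shared a property that did not enter their choice. *FRAT1*, *FZD8*, *FRAT2* and *FZD1* each have 1 exon and span 2.23 to 6.89 kb, whereas the other 6 members have 11 to 23 exons and span 33.1 to 217 kb. The log2 fold changes of these groups, −4.92 to −3.14 against −2.31 to 0.17, did not overlap. With 1 CPM added they did, since *FZD8* was then at −1.60, against −2.10 for *AXIN1* and −1.69 for *AXIN2*. Over all tested protein-coding genes with a gene model, 116 of 181 with 1 exon (64.1%) were called lower, with a median log2 fold change of −1.59, against 2445 of 10923 with more exons (22.4%), with a median of −0.18. The share fell off with exon number, at 54.3% for 2 exons, 32.7% for 3 to 5, 20.6% for 6 to 10 and 15.7% for more than 10. Genes with 1 exon were also less abundant, with a median level of 12.0 CPM against 30.2 CPM for genes with more exons, and the part of level or of any other property in this pattern was not tested. After scaling to the upper quartile the shares were 53.0% and 13.9%. The 1-exon class includes the members that raised the question. Without *FRAT1*, *FRAT2* and the Frizzled genes, 111 of 175 genes with 1 exon (63.4%) were called lower as deposited, with a median of −1.56. *FRAT1*, *FZD8*, *FRAT2* and *FZD1* lay below the lower quartile of the 1-exon genes (−2.91). *AXIN1*, *AXIN2*, *LRP6* and *TCF7L2* lay below that of the genes with over 10 exons, whose lower and upper quartiles were −0.65 and 0.19.

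**Figure D3:**
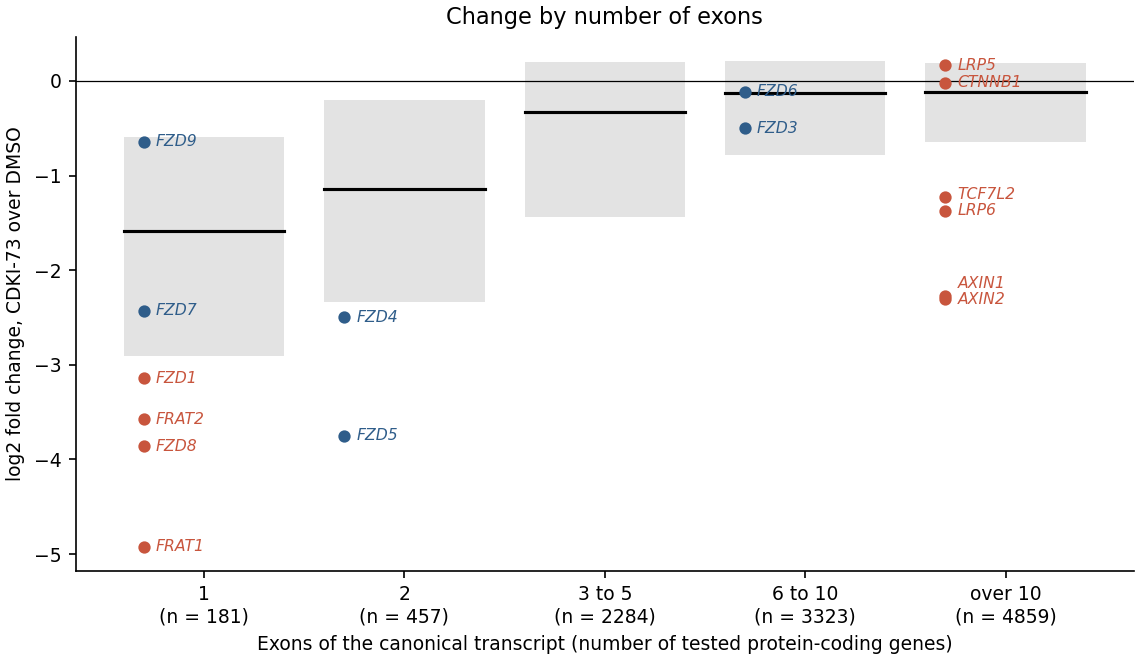
Log2 fold change, CDKI-73 over DMSO, by the number of exons of the canonical transcript. Grey boxes span the lower to the upper quartile of all tested protein-coding genes of a class and black lines their medians, from −1.59 for 1 exon to −0.12 for over 10. Red points are the 10 genes and blue points the other tested Frizzled genes, of which *FZD3* and *FZD6* have 8 and 7 exons.

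The Frizzled family was examined further, as its members differ in exon number. Of the other Frizzled genes tested, *FZD5*, with 2 exons, was at 3.96, 4.14 and 3.3 CPM in CDKI-73 samples, against 50.80, 51.76 and 53.88 CPM in DMSO samples, a log2 fold change of −3.75 (SE 0.090, limma adjusted p = 2.5e-08). *FZD4*, with 2 exons, and *FZD7*, with 1, also fell by more than 2-fold (−2.50 and −2.43). *FZD7* averaged 0.23 CPM with CDKI-73 and 1.66 CPM with DMSO, and passed the filter only through its DMSO samples. With the other coreceptors, 7 of the 10 tested genes of this role were lower, 3 of them called, and *PTK7*, a coreceptor gene named after its values were seen, was higher (0.29). Over all tested genes 48.2% were lower and 22.3% were called lower, so the called share of this role was near that of all genes. *FZD9*, *FZD3* and *FZD6* are named after their values were seen. *FZD9*, with 1 exon, was lower by less than 2-fold (−0.64, adjusted p = 0.0032 from limma). By contrast the multi-exon genes *FZD3* and *FZD6* had log2 fold changes of −0.50 (adjusted p = 6.8e-04 from limma) and −0.11 (adjusted p = 0.060), and *FZD6* had the highest level of the family per kilobase, at 19.7 CPM per kb with CDKI-73 and 21.3 CPM per kb with DMSO. Among the 8 tested Frizzled genes, those called lower, which include *FZD1* and *FZD8*, all had 1 or 2 exons. *FZD9* shows that a 1-exon structure did not always go with a large fall.

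The rest of the pathway was described from a list of 115 further WNT genes by role, of which 76 were tested. Of these, 50 were lower and 8 were higher by limma, with 28 called lower, and the median log2 fold change was −0.71. Over all tested genes, 48.2% were lower, 24.2% were higher and 22.3% were called lower, with a median of −0.18. The counts by role below are to be read against these shares. The other listed genes did not pass the filter on low values, among them most ligand genes (6 of 19 tested) and most genes of extracellular inhibitors (3 of 14 tested). None of the 76 was called higher by at least 2-fold, where 1.11% of all tested genes were.

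At the cell surface, all 3 tested genes of R-spondin signaling and receptor turnover were called lower. *RNF43* and *ZNRF3*, whose products remove Frizzled from the membrane, had log2 fold changes of −2.27 and −2.08, and *LGR4*, an R-spondin receptor, −1.93. Of 6 tested ligand genes, 3 were lower, a share near the 48.2% of all tested genes. The only ligand gene called lower was *WNT5A*, which encodes a ligand best known for non-canonical signaling, at 1.54, 1.25 and 1.37 CPM in CDKI-73 samples, against 6.22, 5.73 and 6.85 CPM in DMSO samples (−2.10). The genes for ligand secretion did not share this direction. *PORCN*, which encodes the acyltransferase of WNT proteins, was higher (0.46) together with *TMED2* (0.17), both named after their values were seen, and none of the 4 was lower by limma, nor before adjustment of p.

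Of 3 tested genes of extracellular inhibitors, *APCDD1* was called lower (−1.17) and the others did not pass. Of 7 tested genes for Dishevelled proteins and their regulators, 2 were lower and none was called. Over all tested genes 48.2% were lower and 22.3% were called lower.

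In the destruction complex and among its regulators, 15 of 19 genes were lower and 7 were called lower. *RNF146*, a ubiquitin ligase that directs tankyrase-modified AXIN to degradation, fell most, to 3.35, 3.01 and 2.10 CPM in CDKI-73 samples, against 36.05, 32.96 and 31.53 CPM in DMSO samples (−3.55). *AMER1* and *APC*, which bind each other in the complex, had log2 fold changes of −1.74 and −1.70, and *FBXW11*, a ubiquitin ligase adaptor for beta-catenin, −1.63. The kinase gene *GSK3B*, named after its values were seen, was lower by less than 2-fold (−0.92), whereas *GSK3A* was at −0.12 (adjusted p = 0.082 from limma). *PPP2R1A*, a subunit gene of the phosphatase PP2A, also named after its values were seen, was the sole higher gene of this role (0.50). CDKI-73 replicate 3 was the lowest sample for *APC*, at 12.65 CPM against 20.03 and 20.47 CPM in the other CDKI-73 samples.

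Among TCF/LEF factors and nuclear cofactors, 12 of 17 were lower, 9 of them called, and 4 were higher. *BCL9*, which bridges beta-catenin to PYGO proteins, *CREBBP* and *EP300*, which encode histone acetyltransferases, and *CHD8*, a chromatin remodeler gene, had log2 fold changes of −2.26, −2.13, −1.99 and −2.05. Named after their values were seen, the higher genes were *CTNNBIP1* (0.28), an inhibitor of the beta-catenin and TCF interaction, *HDAC1* (0.39), *TLE2* (0.39) and *AES* (0.45), the last 3 associated with repression by Groucho proteins. The Groucho genes *TLE3* (−1.90) and *TLE1* (−1.02), also named after their values were seen, were instead called lower. Genes of Groucho repression thus did not share a direction. After scaling to the reference genes none of the 76 genes was higher and 66 were lower, and after scaling to the upper quartile 23 were higher and 38 lower.

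Of 12 tested genes known as targets of beta-catenin, 11 were lower and 7 were called lower. The role lists overlap, and of these targets *RNF43*, *ZNRF3*, *LEF1*, *TCF7* and *NKD1* were also counted under another role above. *BAMBI*, a pseudoreceptor gene of TGF-beta signaling, was at 1.35, 1.45 and 0.69 CPM with CDKI-73, against 24.46, 23.31 and 23.92 CPM with DMSO (−4.31). *SOX9*, a transcription factor gene, had a log2 fold change of −3.25, followed by *RNF43* and *ZNRF3*. *SOX9* had few reads, at 0.17, 0.17 and 0.04 CPM with CDKI-73, against 1.89, 1.78 and 2.23 CPM with DMSO. Like *FRAT1* and *FZD8*, it passed the filter only through its DMSO samples. Since the list holds genes that respond to other inputs as well, it does not measure the activity of beta-catenin, and in bulk RNA the level of the protein was not measured.

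**Figure D4:**
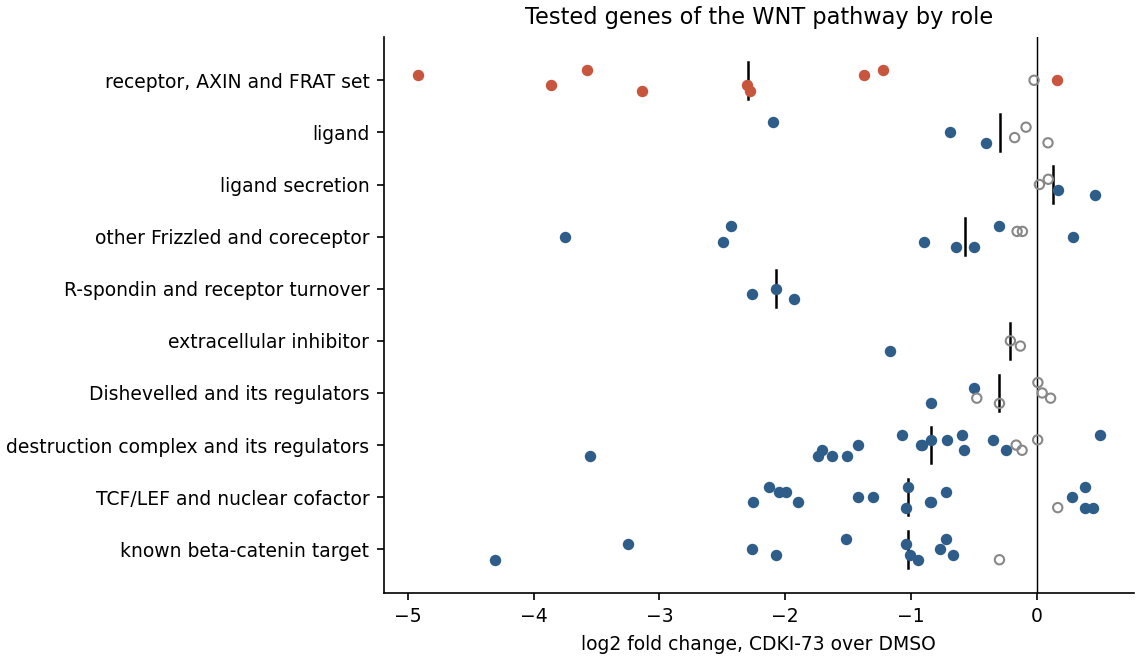
Log2 fold change, CDKI-73 over DMSO, of the 10 genes (top row, red) and of the other tested WNT pathway genes by role (blue). Filled points passed limma at an adjusted p of 0.05, open points did not, points are spread vertically for legibility and black lines are medians. The median of the 10 genes was −2.29, and the R-spondin and receptor turnover row had −2.08.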

How the data were processed

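The 6 LNCaP samples, 3 per group, were grouped by the treatment given in their labels; CDKI-73 also occurs in the titles of the vehicle samples, where the treatment field was followed. The authors aligned reads to hg38 using STAR, whose GeneCounts option gave reads per gene, and deposited CPM rounded to 2 decimals. The submitters' processing notes also name FastQC, edgeR 3.3 and R 3.2.3. Each sample's CPM sum to between 999999 and 1000008, so that no TMM factor is in them. CPM are not counts, so log2(CPM + 0.1) was tested by lmFit and eBayes (intensity trend) of limma 3.58.1, run in R 4.3.3, for genes with a mean of at least 0.5 CPM, where the authors tested TMM normalized counts in edgeR. The script was tested on simulated data.

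Counted reads were inferred as the total at which 99.8% to 100.0% of values up to 5 CPM fit whole reads within rounding, against 46.1% to 60.9% for arbitrary values. Rounding is up to 0.30 reads, and single reads were taken as approximate. Gene models and coordinates are those of GENCODE v44, whose build is hg38, and 11590 of the 13373 tested symbols (86.7%) matched a single model. Promoter windows are those of RefSeq, with entries for 8 of the 10 genes. Tables and plots used pandas 2.3.3 and matplotlib 3.10.9 in Python 3.11.15.

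The genes, lists and tests were chosen with earlier results of these data known. Besides the 10 genes, at most 4 called genes of each role are named by size of change, and those closest in profile to *FRAT1* and *CTNNB1*. Other pathway genes were named after their values were seen. Alternatives were other pseudocounts, filters and scalings, limma without trend, the replicate number as a block, and each sample left out. Sequenced reads were not analysed here.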

Additional observations from a re-analysis of the deposited data

How the results depend on the processing

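Of the 16 alternatives to each test over genes, none took *FRAT1*, *FRAT2*, *FZD1*, *LRP6*, *AXIN1*, *AXIN2* or *TCF7L2* across the limma threshold or changed the sign, and the same held for *FZD8* under 15, a filter of 2 CPM leaving it without a value. *LRP5* and *CTNNB1* followed the scaling. With scaling to the median ratio over genes, the upper quartile, the trimmed mean of M-values and the reference genes, *CTNNB1* had 0.16, 0.48, 0.18 and −0.43, and *LRP5* had 0.34, 0.66, 0.36 and −0.24. In the same order, 2, 2, 2 and 0 of the 10 genes were higher, 14, 23, 14 and 0 of the other WNT genes, and 4909, 7346, 5091 and 387 of all tested genes. All tested genes lower numbered 3931 with the upper quartile and 9919 with the reference genes. Those called lower were 1856 with the upper quartile, and other WNT genes called lower 43 with the reference genes. Genes called higher by 2-fold, 148 as deposited, were 52 with 1 CPM added, 377 without a filter, 52 with a filter of 2 CPM, 787 with the upper quartile, 71 with the reference genes and 233 with the trimmed mean. The cause of these shifts was not tested. With 1 sample left out, the *LRP5* value ranged from 0.13 to 0.21, 0 to 1 of the 10 genes were higher, and the difference in the log2 ratio of *AXIN2* to *AXIN1* ranged from −0.0772 to 0.0445.

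Of the log2 ratios, *LRP6* over *LRP5* was little moved by the pseudocount (−1.54 with 0.01 CPM or none, −1.49 with 1 CPM), and the others depended on it. *FRAT1* over *FRAT2* differed by −1.94 with 0.01 CPM, −2.03 with none and 0.36 with 1 CPM, *FZD8* over *FZD1* by −1.95, −2.25 and 1.18, and *AXIN2* over *AXIN1* by −0.10, −0.11 and 0.41. The replicate block left *LRP5* at 0.17 with a limma adjusted p = 0.067, so 0 of the 10 genes were higher, and changed no other call among them. Same-numbered samples of the groups correlated at −0.295, 0.106 and −0.227 in their deviations from the group means. Samples with different numbers correlated at −0.223 to 0.339. These deviations sum to 0 within each group, so the correlations do not settle whether the numbers paired the samples. *FZD8* and *FRAT1* are limited by depth, at 1 to 10 reads per CDKI-73 sample.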

Other observations

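The genes closest to *FRAT1* in profile, by the root mean square difference in log2(CPM + 0.1) over the 6 samples after each gene was centred on its mean, were *NRARP* (0.179), *CEBPA* (0.218), *GATA6* (0.218), *CEBPD* (0.241) and *ZBED5* (0.254). *NRARP* encodes a regulator of Notch signaling, and *CEBPA*, *CEBPD* and *GATA6* encode transcription factors. *NRARP* averaged 1.52 ± 0.40 CPM in CDKI-73 samples and 54.8 ± 1.74 CPM in DMSO samples (SD, n = 3 each), and *GATA6* 0.123 ± 0.050 CPM and 5.20 ± 0.12 CPM. The genes closest to *CTNNB1* were *COQ3* (0.0235), *C15orf38* (0.0251), *ETNK1* (0.0256), *COX11* (0.0295) and *TMEM19* (0.0310), with log2 fold changes between −0.06 and 0.01.

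Some genes of the wider pathway had a CDKI-73 sample apart from the rest. *MYC*, a target of beta-catenin, was at 76.09, 74.31 and 44.09 CPM in CDKI-73 samples, against 181.11, 176.59 and 184.38 CPM in DMSO samples (log2 fold change −1.52). *JUN* was at 29.36, 30.43 and 16.62 CPM in CDKI-73 samples, against 42.94, 41.35 and 41.78 CPM in DMSO samples (−0.77). In both, CDKI-73 replicate 3 was the lowest, as it was for *APC*, *BAMBI* and *SOX9*. For *SOX9* it stood at 0.04 CPM, where 1 read was worth 0.0217 CPM. The same sample was the lowest of its group for many other pathway genes, such as *RNF146*, *FBXW11*, *BCL9* and *EP300*. This held also for *FZD1*, *LRP5*, *LRP6*, *AXIN1* and *AXIN2*, whereas it was the highest CDKI-73 sample for *FRAT2*, *FZD8* and *TCF7L2*. It had the fewest counted reads, 46.1 M, and the part of depth was not tested. The genes of this paragraph were picked after their values were seen.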
